A study of Mus musculus with 7 samples.

Results

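The Slc15 genes encode the proton-coupled peptide transporters, and all 5 members, Slc15a1, Slc15a2, Slc15a3, Slc15a4 and Slc15a5, were measured in liver by 1 probe each. They were taken by gene symbol, as 5 of 16462 named genes and 5 of 23574 probes. The family was chosen by measured values, the genotype difference of Slc15a5 and the spread of Slc15a2 between livers, so both patterns are described here without a test. The genotype differences of the other members belong to the same comparison and are given in the same way.

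Proteins of this family move dipeptides and tripeptides across membranes together with protons, so that an inward proton gradient drives the uptake of amino nitrogen in the form of short peptides. Slc15a1 (PEPT1) is best known from the intestinal brush border and Slc15a2 (PEPT2) from kidney tubule and choroid plexus. Slc15a3 (PHT2) and Slc15a4 (PHT1) lie in endosomes and lysosomes of immune cells, where they carry histidine and peptides, including bacterial cell wall fragments that reach the sensors Nod1 and Nod2. Slc15a5 is the least studied member, and its substrates are not settled.

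Liver RNA of 7 mice on a chow diet was compared on 2-colour arrays with 1 common pool made from 6 wild-type livers. The knockouts, C3ar1-/-, lack C3ar1, whose product binds C3a, a fragment of complement C3, and there were 3 of them, numbered 2 to 4 in the labels. Their 4 wild-type littermates are numbered 1 to 4. The deleted part of C3ar1, the strain, the sex and the age are not given in the sources used here. Values are log10 ratios of a liver over the pool. The labels state neither the logarithm's base nor the direction: the spread of the values points to base 10, and liver over pool is likely because each title names the pool before the liver, as Cy3 comes before Cy5 in the labels. A turned direction would turn every sign.

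Every array held a value for all 23574 probes, with a median between -0.0008 and 0.0139. Knockout liver 2 had the widest spread over probes (SD 0.0975, against 0.0466 to 0.0676 elsewhere). Of all probes 1 was called (0.00424%, lower in the knockouts; limma, adjusted p under 0.05), and 4.47% were at an unadjusted p under 0.05. C3ar1, the targeted gene, differed by 0.0329 ± 0.0233 (SE) between knockouts and wild types (limma, adjusted p = 0.884), so its probe, which may lie outside the deleted part, does not check the labels. Hepatocyte markers had list means between -0.0361 and 0.0632 in the 7 livers (22 of 25 listed genes measured, 0 called or without overlap). Knockout means were higher for 18 of the 22, with differences from -0.0700 to 0.201. The median difference was 0.0287 in this list and 0.00558 over all genes. A higher knockout mean was thus the more common case over all genes too, but its share was not counted. Trf, Hal, Apoa1 and Hnf4a differed by 0.0956, 0.103, 0.0291 and 0.0283. Ratios to a liver pool hold no absolute level, so the presence of a cell type, or of any Slc15 transcript above background, could not be read from them.

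Promoter sequence was available from RefSeq for 4 members, and is shown for the 2 genes on which the results turn. Each run holds the 250 bases before the annotated start in build GRCm38.p6, read 5′ to 3′ on the gene's strand, which is the minus strand in both. Slc15a5 lies at chr6:138079917-138080166 and Slc15a2 at chr16:36784963-36785212. Capitals mark a GC box (GGGCGG on either strand), a site of Sp1-type factors.
Slc15a5: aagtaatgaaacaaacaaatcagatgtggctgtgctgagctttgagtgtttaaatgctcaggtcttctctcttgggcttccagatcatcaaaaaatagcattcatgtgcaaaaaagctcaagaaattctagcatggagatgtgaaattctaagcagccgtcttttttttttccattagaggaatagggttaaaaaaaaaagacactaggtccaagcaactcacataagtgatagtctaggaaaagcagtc
Slc15a2: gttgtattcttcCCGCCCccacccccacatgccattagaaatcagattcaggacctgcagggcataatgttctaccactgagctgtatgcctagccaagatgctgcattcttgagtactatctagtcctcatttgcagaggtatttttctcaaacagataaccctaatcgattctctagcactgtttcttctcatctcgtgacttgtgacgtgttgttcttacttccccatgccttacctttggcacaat

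Both windows were poor in G and C. The Slc15a5 window held 37.2% G and C, with 7.31% of 32851 mouse promoter windows of the same length below it, and the Slc15a2 window 45.2%, with 24.5% below it. The windows of Slc15a1 and Slc15a4 held 62.0% and 62.8%, above the median of 52.4%. A GC box was found 238 bases before the start of Slc15a2 on the strand opposite to the gene, and in 2 places before Slc15a4, while 32.7% of all windows held one. No window of the 4 held a TATA box (TATAAA) on either strand, which 12.4% of all windows held, or a CCAAT box (CCAAT), which 33.9% held. An E-box (CACGTG), held by 6.02% of all windows, and the core of a Cdx site (TTTATG), held by 10.8%, were not found either. A match describes letters only.

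Slc15a5 read low in all knockouts. Knockout livers 2, 3 and 4 stood at -0.518, -0.531 and -0.586. The 4 wild-type livers stood, in the order of their numbers, at 0.0731, 0.160, 0.0871 and -0.116. The groups did not overlap, with a gap of 0.401 between the highest knockout and the lowest wild type, which was liver 4. Slc15a5 was the only member without overlap, and 2.54% of all probes were without overlap in that direction, or 5.26% in either.

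The mean of Slc15a5 was -0.545 ± 0.0363 in the knockouts (SD, n = 3) and 0.0510 ± 0.118 in the wild types (SD, n = 4). The difference of -0.596 ± 0.0602 (SE) equals 3.94-fold in base 10 and would equal 1.51-fold in base 2. It was the fifth most negative of all probes. Within single arrays the Slc15a5 probe ranked 12th, 9th and 21st from the lowest of 23574 in knockout livers 2, 3 and 4. At least 96.7% of probes lay below it on the arrays of wild-type livers 1 to 3, and 3.35% on that of wild-type liver 4. In whole liver RNA, fewer cells of a type and less RNA per cell cannot be told apart.

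Slc15a2 was high in 3 livers and low in 2, with both genotypes at both ends. Knockout livers 2 and 4 stood at 0.725 and 0.501, and wild-type liver 4 stood at 0.556. Knockout liver 3 stood at -0.474, and wild-type liver 3 lowest at -0.858. Wild-type livers 1 and 2 lay between, at -0.0997 and -0.0476. Each genotype thus held high and low livers, and the groups overlapped.

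The range of Slc15a2 over the livers was 1.58, or 38.3-fold in base 10 and 3.00-fold in base 2. The probe was the highest of all 23574 in wild-type liver 4 and again in knockout liver 2, and the 5th highest in knockout liver 4. It was the 3rd lowest in wild-type liver 3 and the 15th lowest in knockout liver 3. Its SD over the 7 livers, 0.584, was the 3rd highest of all probes, after Dmbt1 (0.756), a gene of bile duct and gut mucosa, and Cidea (0.703), a lipid droplet gene. The median SD of all probes was 0.0364.

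The SD of Slc15a2 was 0.580 within the 4 wild types and 0.637 within the 3 knockouts. The genotype means were -0.112 and 0.251, and the difference of 0.363 ± 0.374 (SE) was below its own error. Leaving out wild-type liver 3 gave 0.114, leaving out knockout liver 2 gave 0.126 and leaving out knockout liver 3 gave 0.725. With wild-type liver 4 left out it was 0.586, with knockout liver 4 left out 0.238, and it turned to -0.0559 when arrays were weighted by quality. With replicate number as a block the difference was 0.367 ± 0.150 (SE), but the titles do not say whether shared numbers mark pairs. Both livers numbered 3 were low and both numbered 4 were high, while of those numbered 2 only the knockout was high. Wild-type liver 1 shares its number with no knockout, and leaving it out also gave 0.367. No direction between genotypes could be given for Slc15a2.

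**Figure D1:**
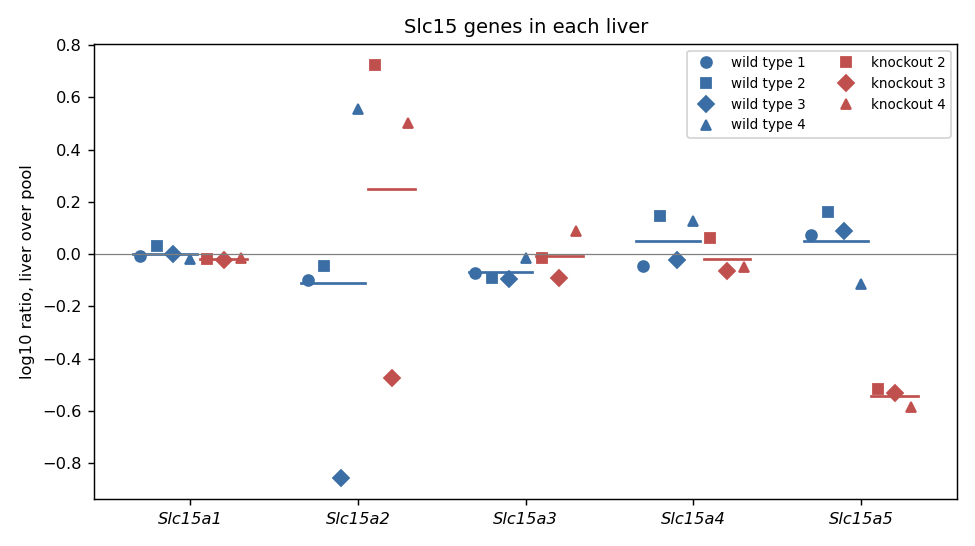
Log10 ratio of each liver over the wild-type pool (vertical axis) for the 5 Slc15 genes, with blue points for 4 wild-type and red points for 3 knockout livers and bars for group means. The 3 knockout points of Slc15a5 lie between -0.586 and -0.518, below every wild type, while Slc15a2 runs from -0.858 to 0.725 with both colours at both ends.

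The other 3 members varied less. Slc15a1, the intestinal transporter, kept closest to the pool, from -0.0219 to 0.0292 over the 7 livers. Its SD of 0.0177 ranked 21215th from the highest of 23574 probes. A ratio near the pool does not tell whether the transcript is present in liver. The genotype difference of Slc15a1 was -0.0186 ± 0.0180 (SE), or -0.0091 without wild-type liver 2, and the groups overlapped.

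Slc15a3, a lysosomal transporter of macrophages, read -0.0736, -0.0905, -0.0965 and -0.0133 in wild-type livers 1 to 4. The knockouts, in the same way, read -0.0148, -0.0935 and 0.0878. Knockout liver 4 alone stood above the pool, and the groups overlapped. The difference was 0.0616 ± 0.0427 (SE), and 0.0143 when knockout liver 4 was left out or 0.105 when knockout liver 3 was.

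Slc15a4, the partner of Tasl and Irf5 in the signalling of endosomal Toll-like receptors, read -0.0452, 0.147, -0.0209 and 0.125 in wild-type livers 1 to 4. Knockout livers 2 to 4 read 0.0630, -0.0640 and -0.0513. High and low livers again occurred in both genotypes, with a difference of -0.0689 ± 0.0565 (SE). Leaving out a mouse moved it to -0.0371 (wild type 2), -0.0443 (wild type 4), -0.0456 (knockout 3) or -0.109 (knockout 2). The spread of Slc15a4 over the livers (SD 0.0885) was above that of 90.7% of probes, and that of Slc15a3 (SD 0.0676) above 81.8%.

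Markers of immune cells, of bile duct cells and of intestinal and kidney epithelium were read beside the transporters. The mean of 23 macrophage and Kupffer cell markers was highest at 0.0924 in knockout liver 4, where Slc15a3 was highest, and lowest at -0.202 in wild-type liver 3, where Slc15a3 was lowest. Over the groups this list mean ran from -0.202 to -0.0470 in the wild types and from -0.138 to 0.0924 in the knockouts. Knockout means were higher for 20 of the 23 markers, 0 were called, and 1, the scavenger receptor gene Cd163, was without overlap, a gene chosen after its values were seen, beside 2.71% of all genes. Knockout liver 4 alone was above the wild types in the list mean, while knockout livers 2 and 3, at -0.115 and -0.138, were below 3 of the 4 wild types. The median difference of the list was 0.0402, and that of all genes 0.00558. Marco, another scavenger receptor of Kupffer cells, differed by 0.365 ± 0.153 (SE; limma, adjusted p = 0.884), and C1qa, a subunit of complement C1q, by 0.108 ± 0.0518 (adjusted p = 0.884). Clec4f, a Kupffer cell lectin, differed by 0.0910 ± 0.0524, and Slc40a1, the iron exporter of macrophages, in the other direction by -0.109 ± 0.0667 (adjusted p = 0.884 each). The part of macrophage number in the Slc15a3 values was not tested.

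The mean of 18 markers of plasmacytoid dendritic and B cells, which use Slc15a4 in endosomal Toll-like receptor signalling, lay between -0.0247 and 0.00746 in all livers. Siglech, a lectin of plasmacytoid cells, differed by 0.0287 ± 0.0198 (SE; limma, adjusted p = 0.884), and Tcf4, Pax5 and Cd74 by 0.0346, 0.0341 and 0.0242. Of the 18 markers 13 had a higher knockout mean, with differences from -0.0986 to 0.0415, and none was called or without overlap.

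Markers of bile duct cells were read from a list of 24 genes, of which 19 were measured and 0 called. Their mean was -0.0274 in wild-type liver 3 and -0.000259 in wild-type liver 4, the lowest and the second highest liver for Slc15a2. The lowest mean was -0.0526 in knockout liver 3, where Slc15a2 was at -0.474. Knockout livers 2 and 4 had means of -0.00866 and 0.00354, and wild-type liver 1 of -0.0523. The highest mean was 0.0883 in wild-type liver 2, where Slc15a2 was at -0.0476. The epithelial surface gene Epcam was at 0.184 in that liver. Single markers of the list had a median SD of 0.0651 and a highest SD of 0.204, in the mucin gene Muc1, chosen after its values were seen. Outside the list, Dmbt1 and the bile duct protease gene Mmp7 had an SD of 0.756 and 0.386. Epcam differed between genotypes by -0.0983, the stem cell marker gene Prom1 by -0.0836, the anion exchanger gene Slc4a2 by 0.0379 and the duct transcription factor gene Sox9 by 0.0379, each with an adjusted p of 0.884 (limma). The mean of 22 intestinal and kidney epithelial markers lay between -0.0108 and 0.0439. Of these 0 were called and 1, the water channel gene Aqp2, was higher without overlap (0.0251), beside 2.71% of all genes. Lct, Slc12a3 and Tff3 differed by 0.104, 0.0643 and 0.0395, with overlap.

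**Figure D2:**
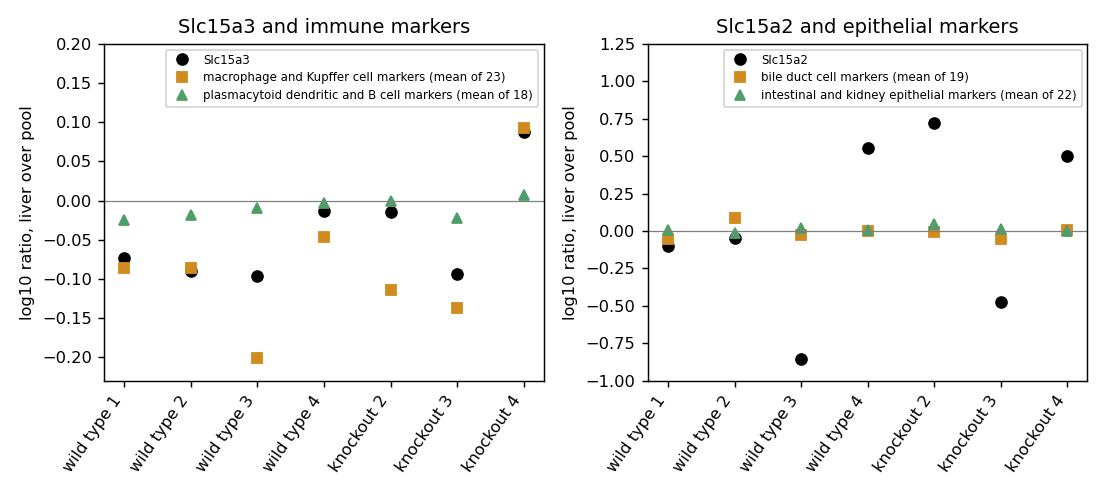
Log10 ratio over the pool (vertical axes) in each of 7 livers for Slc15a3 with the means of 23 macrophage and 18 dendritic and B cell markers (left), and for Slc15a2 with the means of 19 bile duct and 22 intestinal and kidney markers (right); the axes differ in scale. On the left the macrophage mean and Slc15a3 are both highest in knockout liver 4; on the right the marker means lie between -0.0526 and 0.0883 and Slc15a2 between -0.858 and 0.725, and a mean over many genes can vary less than its single genes.

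Slc15a5 shares chromosome 6 with the targeted gene C3ar1, and 159 measured genes lie between them in the GRCm38.p6 gene order. The other members lie on chromosomes 14, 16, 19 and 5. The 10 nearest measured genes on each side of Slc15a5 were therefore read one by one. Of these 20 neighbours 0 were called (limma, smallest adjusted p = 0.399), 5 were higher and 2 lower without overlap, where 2.71% and 2.56% of all genes were, and 6 were at an unadjusted p under 0.05, where 4.55% of all genes were. Around the other members 0 to 2 of 20 neighbours were at that level and 0 were called. Without overlap, 0 were higher and 3 lower around Slc15a1, and 1 higher and 0 lower around Slc15a2. Around Slc15a3 1 was higher and 1 lower, and around Slc15a4 0 were in either direction. Effects of the C3ar1 deletion and of alleles linked to it on chromosome 6 cannot be told apart in this design.

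Both genes next to Slc15a5 were low in the knockouts. Dera, the deoxyribose-phosphate aldolase on one side, read -0.281, -0.266 and -0.291 in the knockouts, again in the order of their numbers. The wild types read 0.0250, 0.0413, 0.0319 and -0.110. The difference was -0.276 ± 0.0378 (SE; limma, adjusted p = 0.399). In Dera, as in Slc15a5, wild-type liver 4 lay between the other wild types and the knockouts.

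Mgst1, a microsomal glutathione transferase on the other side, read -0.336, -0.240 and -0.340 in the knockouts. It read 0.0716, -0.0009, 0.0546 and -0.173 in wild-type livers 1 to 4, a difference of -0.294 ± 0.0598 (SE; limma, adjusted p = 0.884). Here too wild-type liver 4 was the lowest wild type.

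Further out, genes without overlap were higher in the knockouts. Pde6h, a phosphodiesterase subunit 6 genes away, differed by 0.215 ± 0.0490 (SE), and Erp27, an endoplasmic reticulum protein 8 genes away, by 0.160 ± 0.0306. Eps8, an actin regulator 3 genes away, differed by 0.141 ± 0.0351, and Mgp, the matrix Gla protein, by 0.0486 ± 0.0233. Pik3c2g, a lipid kinase 4 genes away on the side of Mgst1, differed by 0.253 ± 0.0669 as the mean of probes that disagreed, at 0.521 and -0.0149. Each had an adjusted p of 0.884 (limma).

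Other neighbours, among and beyond these genes, overlapped between the groups. Strap, a gene of RNA-bound complexes that is 2 genes from Slc15a5, differed by 0.00768 ± 0.0338 (SE) and the transcriptional cofactor gene Lmo3 by 0.0437 ± 0.0291. Art4, Arhgdib, Rerg, Ptpro, Igbp1b, Plcz1, Capza3, Plekha5, Aebp2, Pde3a and Slco1c1 differed by -0.0291 to 0.0808.

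**Figure D3:**
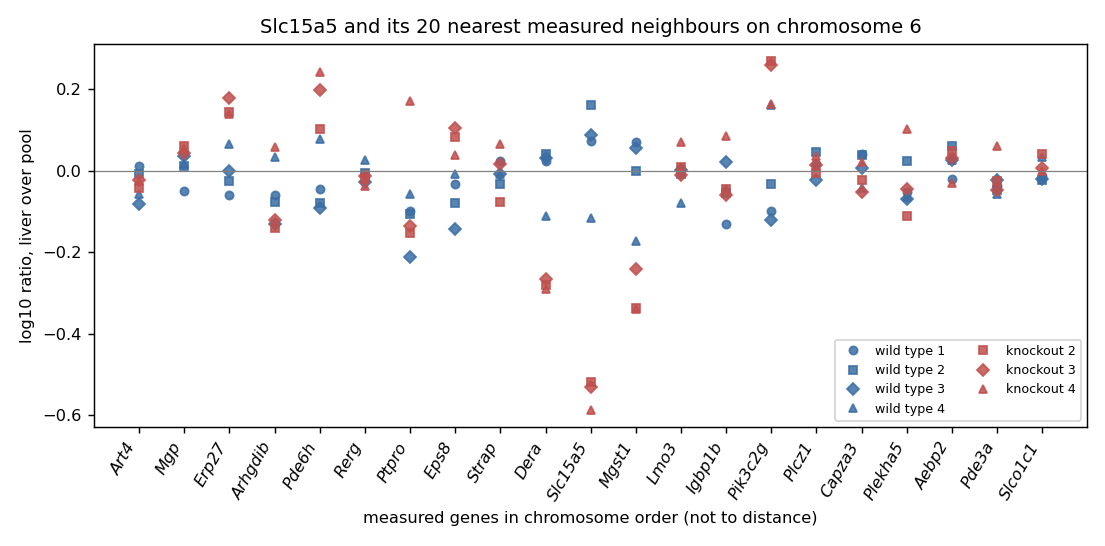
Log10 ratio over the pool (vertical axis) of Slc15a5 and its 10 nearest measured genes on each side, in chromosome order and not to distance (horizontal axis), with blue points for wild-type and red points for knockout livers. Dera, Slc15a5 and Mgst1 form a run of 3 low genes in the knockouts, in which the blue triangle of wild-type liver 4 lies between the other wild types and the knockouts.

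Wild-type liver 4 was the wild type nearest to the knockouts in 6 of the 7 neighbours without overlap, and in Slc15a5 itself. Over all 1170 genes without overlap in either direction (5.27%) that liver was nearest in 33.5%. On the log10 scale it stood 34.3% of the way from the mean of the other wild types to the knockout mean in Slc15a5. The same share was 45.9% in Dera, 61.8% in Mgst1, 51.5% in Erp27 and 59.6% in Pde6h. It was 3.84% in A2ml1, a protease inhibitor gene of chromosome 6 that differed by -0.827 between genotypes. Also outside the neighbours of Slc15a5, it was 47.4% in Bid on chromosome 6, 37.7% in Car2 on chromosome 3 and 28.3% in Aldh1a7 on chromosome 19. A2ml1, Bid, Car2 and Aldh1a7 were taken for their likeness to Slc15a5 over these same livers. Their shares thus follow in part from that choice. Without wild-type liver 4 the Slc15a5 difference was -0.652 ± 0.0317 (SE).

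Around Slc15a2 on chromosome 16 no neighbour spread as widely. The 20 nearest measured genes had a median SD of 0.0394 and a highest SD of 0.164, in Gtf2e1, a subunit of a general transcription factor. Eaf2, an elongation factor partner on one side, differed between genotypes by -0.150 ± 0.0547 (SE; limma, adjusted p = 0.884). Hcls1, a blood cell actin regulator 4 genes away, followed the order of Slc15a2 most closely among these genes, with 0.0580 in wild-type liver 4, 0.114 in knockout liver 2 and a low of -0.0905 in wild-type liver 3. Gtf2e1 and Hcls1 were chosen after their values were seen.

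For the remaining members the neighbour of smallest p was Tmtc4 near Slc15a1 (-0.104 ± 0.0271, SE), Ms4a15 near Slc15a3 (0.0513 ± 0.0253) and Scarb1, the receptor of high-density lipoprotein, near Slc15a4 (0.122 ± 0.0401). Each had an adjusted p of 0.884 (limma).

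Genes whose pattern over the 7 livers was most like that of Slc15a5 were ranked by Pearson's r among 17823 other probes with 1 symbol. These are the extremes of a long ranking and no test was made of them. The closest were Dera (r = 0.994), the carbonic anhydrase gene Car2 (0.980), A2ml1 (0.974), the aldehyde dehydrogenase gene Aldh1a7 (0.971), Cd274 (0.968), which encodes the immune checkpoint ligand PD-L1, and the proapoptotic gene Bid (0.966). Dera, A2ml1 and Bid lie on chromosome 6, Car2 on chromosome 3 and the others on chromosome 19. Without knockout livers 3 and 4, the livers farthest from the Slc15a5 median, r in these 6 genes was 0.933 to 0.996. Knockout liver 2 then remained as the only knockout, far below the wild types. A high r was thus largely set in advance in genes chosen for their likeness over these same livers. The sizes were unequal: Car2 differed by -0.252 ± 0.0382 (SE) between genotypes and Cd274 by -0.0540 ± 0.0164.

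The opposite pattern was closest in Pmepa1 (r = -0.994), a transmembrane gene of TGF-beta signalling, Rbbp8nl (-0.982), the ribosome biogenesis gene Wdr74 (-0.974) and the channel gene Panx2 (-0.969). Each of the 4 differed between genotypes by 0.0688 or less. Rbbp8nl has 2 probes, of which 1 is given.

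For Slc15a2 the highest r was reached by Olfr702, an olfactory receptor gene (0.968), Galnt12, a mucin-type glycosyltransferase (0.967), Ypel2 (0.961), the methyltransferase-like gene Trmt1l (0.959), the nuclear membrane gene Nrm (0.952) and Mfng, a glycosyltransferase of Notch (0.951). The lowest r was found for the peroxisome gene Pex11g (-0.991), Pyurf (-0.956), Mrpl27 of the mitochondrial ribosome (-0.940) and the DNA repair gene Eme1 (-0.939). In these 10 genes the range over the livers was 0.0445 to 0.143, against 1.58 in Slc15a2. Spearman's rho was 1.0 for Galnt12, 0.893 to 0.964 for the other 5 of the first group and -0.929 to -0.857 for the last 4. Ypel2 and Eme1 have 2 probes each, of which 1 is given. None lies on chromosome 16. Without wild-type liver 3 and knockout liver 2, r was 0.952 for Galnt12 and -0.975 for Pex11g, the closest on each side. The livers left were among those by which the genes were chosen.

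Set among all 341 measured Slc genes, which encode solute carriers of every kind, Slc15a5 had the largest genotype difference and Slc15a2 the second largest and the largest SD. The Slc15a5 difference and the Slc15a2 SD led to the choice of the family, so high ranks were largely set by that choice. Of the Slc genes 0 were called (limma), 13 were higher and 4 lower without overlap, or 3.81% and 1.17%, beside 2.71% and 2.56% of all genes. Slc2a4, the insulin-regulated glucose transporter, came second in SD (0.371), with 0.587 in wild-type liver 2 and -0.524 in wild-type liver 1. Behind the Slc15 genes the largest differences were those of Slc16a6, a monocarboxylate carrier (0.256 ± 0.0729, SE), Slc2a4 (-0.245 ± 0.236), the anion exchanger gene Slc26a4 (-0.193 ± 0.0717) and Slc25a25, a mitochondrial carrier of ATP (0.190 ± 0.0364). Slc45a3, Slc37a1, Slc33a1 and Slc16a7 followed with 0.170, 0.161, -0.161 and -0.153. Each had an adjusted p of 0.884 (limma). Slc35f2 and Slc41a2 were next in SD after Slc15a5, at 0.242 and 0.201.

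**Figure D4:**
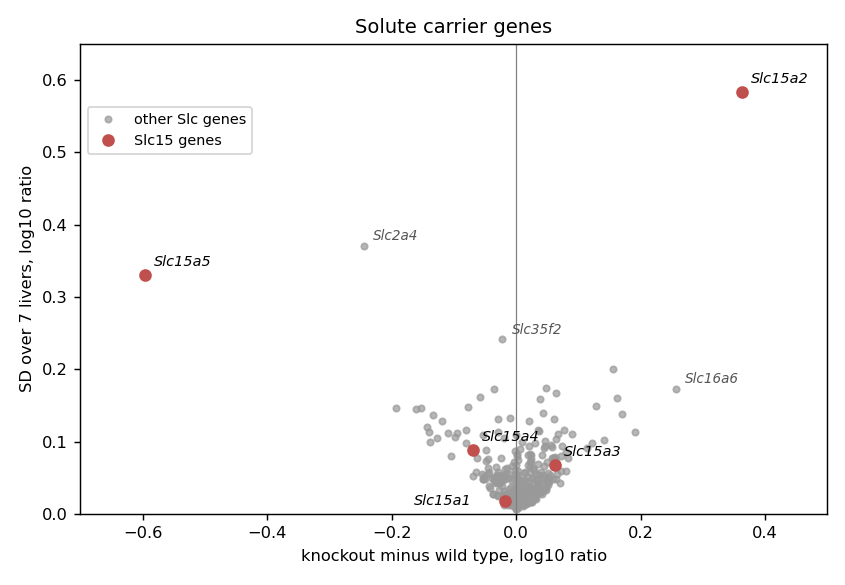
Each point is 1 of 341 solute carrier genes, by its genotype difference in log10 ratio (horizontal axis) and its SD over the 7 livers (vertical axis), with the Slc15 genes in red. Slc15a5 lies far left at -0.596 and Slc15a2 at the top with an SD of 0.584, while Slc15a1, Slc15a3 and Slc15a4 lie among the grey points.

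Genes that work with the peptide transporters were read from 11 lists, in which 290 of 326 listed genes were measured. Of these 0 passed the test over all genes (limma, smallest adjusted p = 0.884), where 0.0045% of all genes did. By an unadjusted p under 0.05 limma listed 10, or 3.45%, where 4.55% of all genes were listed, and the ordinary test 5 with 0 called. Without overlap 9 were higher and 6 lower, or 3.10% and 2.07%, beside 2.71% and 2.56% of all genes. The median difference of the listed genes was 0.0141, and that of all genes 0.00558. With that median above 0, a higher knockout mean was the more common case over all genes too, which bears on the counts by direction.

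Among 29 genes of lysosomal sensing of nucleic acids and muropeptides, 19 had a higher knockout mean and 0 were called. Unc93b1, the chaperone that brings Toll-like receptors to endosomes, differed by 0.0478 ± 0.0191 (SE) and was the 1 gene of the list without overlap. That is 3.45% of the list, beside 2.71% of all genes higher without overlap. Tlr7 and Tlr9, receptors that signal through Slc15a4, differed by 0.0130 ± 0.0215 and 0.0341 ± 0.0257. Irf5, the factor activated at Slc15a4, ran from -0.319 in wild-type liver 1 to 0.261 in knockout liver 4, with a difference of 0.0948 ± 0.116. Tasl was not analysed here. Tlr3, Irf3 and Ap3m1 differed by -0.135, 0.0739 and -0.0861. None of these differences passed the test (adjusted p at least 0.884).

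Peptidases of short peptides, which work on what the transporters carry, were measured for 38 genes. Of these 22 had a higher knockout mean and 0 were called. Without overlap 0 were higher and 2 lower, the latter 5.26% of the list, beside 2.56% of all genes. The lower genes were Nln, the peptidase neurolysin (-0.139 ± 0.0476, SE), and the methionine aminopeptidase gene Metap1 (-0.0615 ± 0.0305). The lysosomal carboxypeptidase gene Cpq differed by -0.0386 and the gamma-glutamyltransferase gene Ggt7 by 0.0497.

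The proton gradient depends on pumps and exchangers, of which 30 genes were measured and 0 called. Without overlap 1 was higher and 1 lower, or 3.33% each, beside 2.71% and 2.56% of all genes. Atp6v1e1, a subunit of the vacuolar proton pump encoded on chromosome 6, read -0.233, -0.0626 and -0.141 in the knockouts and -0.0459 to 0.0258 in the wild types. Its difference of -0.138 ± 0.0400 (SE; limma, adjusted p = 0.884) was the most negative of the list. Atp6v1g2, another subunit, differed by 0.0426 ± 0.0201, also without overlap. The subunits Atp6v0d2 and Atp6v1d differed by -0.0671 and -0.0596.

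Of 29 genes of lysosomal efflux 23 had a higher knockout mean and 0 were called. In each direction 2 were without overlap, or 6.90%, beside 2.71% of all genes higher and 2.56% lower. The lower ones were Slc17a5, the sialic acid exporter (-0.0692 ± 0.0295, SE), and the dipeptide carrier gene Mfsd1 (-0.104 ± 0.0418). The higher ones were the channel gene Tpcn2 (0.0914 ± 0.0336) and Slc29a3 (0.0254), the latter chosen after its values were seen. Slc66a1, an exporter of cationic amino acids, differed by 0.0807 ± 0.0315, with overlap.

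Of 40 amino acid transporters of the cell surface 29 had a higher knockout mean and 0 were called. Without overlap 0 were lower and 3 higher, the latter 7.5% of the list, beside 2.71% of all genes. Slc7a5, the large neutral amino acid exchanger, read 0.0479 to 0.0657 in the knockouts and -0.0718 to 0.0359 in the wild types (difference 0.0633 ± 0.0271, SE). Slc6a15 differed by 0.0317 and Slc38a1, chosen after its values were seen, by 0.0246. The glutamine carrier gene Slc1a5 differed by 0.0661 and the cystine carrier gene Slc7a11 by 0.0380, with overlap.

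Among 22 genes that regulate peptide transporters 0 were called and 1 was lower without overlap, or 4.55%, beside 2.56% of all genes. This was Nfe2l2, the oxidative stress factor Nrf2 (-0.0940 ± 0.0382, SE; limma, adjusted p = 0.884). The kinase gene Akt1 differed by 0.0596, the receptor gene Egfr by 0.139 and the lysosomal gene regulator Tfe3 by 0.0740. In none of the 11 lists did a gene differ by as much as Slc15a5 or vary as widely as Slc15a2. The family was chosen by these values, so this outcome was largely set in advance.

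**Figure D5:**
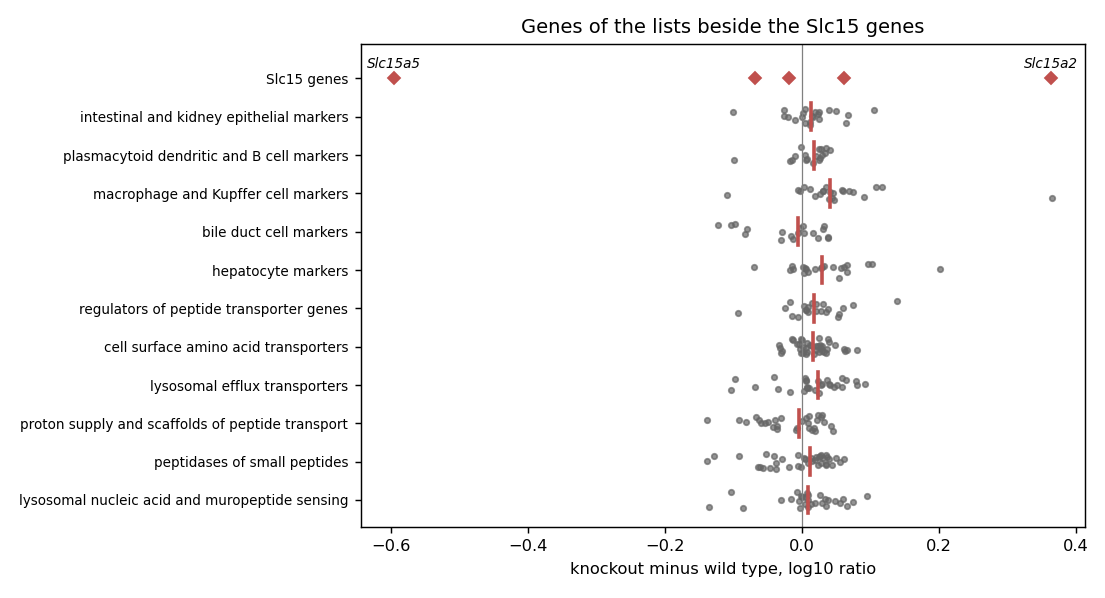
Genotype difference in log10 ratio (horizontal axis) of each measured gene of the 11 lists (grey points, scattered vertically within a row, with a red bar at the median) and of the 5 Slc15 genes (red diamonds, top row). List genes lie between -0.139 and 0.365, and Slc15a5 at -0.596 lies outside that range.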

How the data were processed

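The deposited values were log10 ratios of 7 arrays in 2 colours, each a mouse liver against a pool of 6 wild-type livers. Per the labels, RNA was taken on spin columns with DNase and labelled by aminoallyl coupling. Per the labels' design text dyes were swapped, without naming the arrays that hold a swap. Sources used here name no scanner software, normalization or log base. The base 10 was taken because the typical deviation of a probe from its array's median was 1.05-fold to 1.10-fold in base 10 and only 1.01-fold to 1.03-fold in base 2. The medians of wild-type livers 1 to 4 were 0.0017, -0.0008, 0.0075 and 0.0072, and of knockout livers 2 to 4 0.0139, 0.0064 and 0.0054. Column medians thus lay near 0 as deposited, and whether the columns had been centred is not stated. Direction is likely but unproven. There were 0 unused value columns. The lowest correlation between arrays was -0.250.

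Of the probes 17824 had 1 gene symbol, 50 several and 5700 none. Symbols were updated by Entrez number (17724) or accession (21), and 79 were kept. The genotype test per probe came from limma 3.58.1 under R 4.3.3 (lmFit, eBayes, two-sided, Benjamini-Hochberg over 23574 probes, threshold 0.05). Lists and neighbours used a fit of 22212 features with the probes of a gene averaged. The fit was tested on simulated data. The p-values set each difference against the spread between arrays within genotypes. That spread joins differences between mice with labelling and array noise. The number of arrays limits the precision of each value. Over all probes, arrays that share a replicate number, 2 to 4, did not deviate alike from their group means (correlations of deviations -0.137, -0.205 and -0.154).

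The members, lists and rules were chosen with earlier results of these data known. Named were all members, up to 4 genes of smallest p per list with Tlr7, Tlr9, Tasl and Irf5, the neighbours of Slc15a5, the smallest-p neighbour of each other member, 6 highest and 4 lowest genes by likeness, and the extreme Slc genes. Protein sequences were not used here. Alternatives were other scalings, array weights, a replicate block, a filter on variation, averaging, an ordinary test and each mouse left out. For the scale alternative, columns were centred and brought to a common median absolute deviation.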

Additional observations from a re-analysis of the deposited data

Results flagged for a closer look

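Among the 4 wild-type livers, 1 value stood apart from the other 3 by a share of the group's range above Dixon's 95% critical value in 10 of the 106 genes checked. Chance flags about 1 in 20 independent groups of normal values. Many of the 106 genes were named for small p or likeness in these same livers, or as neighbours. They are not independent, so that rate cannot be set against the count. None of the 5 Slc15 genes was flagged. Wild-type liver 4 stood low in Dera at -0.110, in its near neighbour Lmo3 at -0.0785 and in Cpq at -0.0298, and high in Tlr7 at -0.0095. Wild-type liver 2 stood high in Epcam at 0.184, in Slc1a5 at 0.0737 and in Cd274 at 0.0031. Wild-type liver 3 stood low in Slc26a4 at -0.122 and high in Slc6a15 at 0.0113. Wild-type liver 1 stood low in Irf5 at -0.319. The part of single arrays in these values was not tested.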

How the results depend on the processing

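The difference of Slc15a5 kept its sign in all 14 alternatives, from -0.652 to -0.559 with 1 mouse left out and from -0.600 to -0.530 otherwise, and its SD ranged from 0.298 to 0.359. The SD of Slc15a2 ranged from 0.469 to 0.638, while its genotype difference ranged from 0.114 to 0.725 with 1 mouse left out and turned to -0.0559 with array weights. The SD of Slc15a1 was 0.00820 to 0.0194 and that of Slc15a3 0.0393 to 0.0728 with 1 mouse left out. The number of probes called, 1 in the data as deposited, was 0 after quantile normalization, after scale normalization, with the replicate block and in the ordinary test, 4 when probes of low variation were dropped, and 0 to 3 with 1 mouse left out. List genes called numbered 0 in each of 13 alternatives. List genes without overlap, 9 higher and 6 lower, numbered 4 and 3 after quantile normalization, 5 higher after scale normalization and 3 higher when probes of low variation were dropped, where 176 of the genes remained. With 1 mouse left out there were 11 to 31 higher and 8 to 18 lower, by construction, as fewer mice were compared. The replicate block gave -0.588 ± 0.0463 (SE) for Slc15a5 and 0.367 ± 0.150 for Slc15a2. Whether shared numbers mark pairs is not said in the titles. The other causes were not tested. The dependence on signal over background could not be examined from ratios.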
